A study of Mus musculus with 2 samples.

Results

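Expression of 10 neuropeptide receptor genes was compared between cortical tissue of wild-type (WT) mice and of P4H-TM knock-out (P4H-TM KO, or KO) mice. The genes were Trhr, Oxtr, Tacr3, Tacr1, Npy1r, Crhr1, Cckbr, Vipr1, Sstr2 and Avpr1a. They are 10 of the 18193 genes measured, and 19 probe sets with 1 gene symbol were assigned to them. The set was chosen by name with the KO minus WT differences of these arrays known, among them the high values of Trhr, Oxtr and Tacr3 in P4H-TM KO. The differences below are therefore descriptions of the chosen genes, and they carry no test. P4H-TM is a transmembrane prolyl 4-hydroxylase of the endoplasmic reticulum that can act on hypoxia-inducible factor (HIF).

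The WT group was made of C57BL/6J mice and the P4H-TM KO group of P4h-tm-/- mice with the same strain label. All were naive males 2.5 months old, and the genotypes were littermates. Cortical RNA of 4 mice was pooled for each genotype and hybridized to 1 Affymetrix mouse genome array, so there are 2 arrays in all. With 1 pooled array per genotype there is no replicate check, no SD between animals and no p-value for any difference. P4htm, the targeted gene, had log2 values of 11.05 (WT) and 9.10 (KO) on its probe set of strongest signal, and of 9.71 and 8.07 on the other. Both were lower in the KO array, by 3.86-fold and 3.12-fold, and the place of these probe sets relative to the disrupted part of P4htm was not examined. All 9 measured markers of cortical excitatory neurons, among them Slc17a7, Tbr1 and Fezf2, had a mean of both arrays of at least 6.385, the median of all probe sets, which served as the signal filter, and their median log2 difference was 0.03. Choroid plexus markers were higher in the P4H-TM KO array in 12 of 12 measured genes, meninges markers in 9 of 10, and oligodendrocyte markers were lower in 9 of 9. In RNA of whole tissue, a change in the number of cells of a type and a change of RNA per cell cannot be told apart.

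Neuropeptides are released by neurons, usually beside a fast transmitter, and act through receptors of the G protein-coupled family. Receptors coupled to Gq activate phospholipase C and release calcium from the endoplasmic reticulum, those coupled to Gs raise cyclic AMP, and those coupled to Gi lower it. Trhr, Oxtr, Tacr3, Tacr1, Cckbr and Avpr1a encode receptors that couple mainly to Gq, Crhr1 and Vipr1 receptors that couple mainly to Gs, and Npy1r and Sstr2 receptors that couple mainly to Gi. In the cortex many of these peptides come from interneurons, whereas oxytocin and vasopressin arrive in axons from the hypothalamus.

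The comparison asked how the receptor transcripts differed between the arrays and how far the probe sets of a receptor matched each other. A probe set is a group of short array probes summarized into 1 value, and several probe sets can represent different stretches of the transcripts of a gene. Values are log2 expression values, and a difference is KO minus WT on the log2 scale. On the probe set with the strongest signal, Trhr and Oxtr were at least 1.5-fold higher in KO, Tacr3 was 1.41-fold higher, and the other 7 receptor genes differed by between −0.11 and 0.14. The second Trhr probe set had a difference of the opposite sign, the second Oxtr probe set was near 0, and of the other 2 Tacr3 probe sets 1 had a higher difference of the same sign and 1 the opposite sign.

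**Figure D1:**
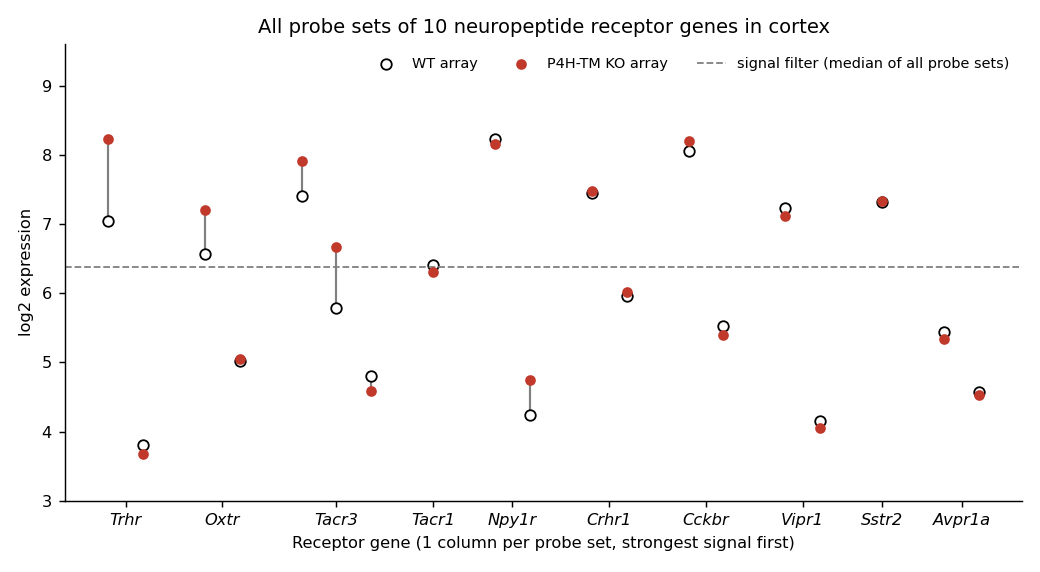
Log2 expression of each of the 19 probe sets of 10 receptor genes in the WT array (open circles) and the P4H-TM KO array (red points), joined by a line, with the probe sets of a gene ordered by signal. The dashed line is the signal filter of 6.385. The longest lines belong to Trhr (7.04 to 8.22), Tacr3 (5.78 to 6.67) and Oxtr (6.56 to 7.20), and each of these genes also has a probe set under the filter with a short line.

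Trhr encodes the receptor of thyrotropin-releasing hormone (TRH), a tripeptide that also acts as a neuromodulator outside the hypothalamus. Probe set 1449571_at had a value of 7.04 in WT and 8.22 in KO, a difference of 1.18, or 2.27-fold. Probe set 1449572_at had 3.81 in WT and 3.67 in KO, a difference of −0.14. The first was above the signal filter on both arrays and the second was far below it on both. On its stronger probe set Trhr ranked 22nd from the highest difference among 11730 genes at or above the filter. The range between both differences, 1.32, is reached by 2 of the 4695 genes with exactly 2 probe sets, Trhr included, where the median range is 0.12. The platform annotation gives the same mRNA record for both Trhr probe sets, and where they lie along it was not examined here.

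Oxtr encodes the oxytocin receptor, known for its part in social behavior. Probe set 1440888_at had 6.56 in WT and 7.20 in KO, a difference of 0.64, or 1.56-fold. Probe set 1426000_at had 5.02 and 5.05, a difference of 0.03. Both differences had the same sign, but only that above the filter reached 1.5-fold, and a range as wide as 0.61 was found in 1.24% of genes with 2 probe sets. Oxtr ranked 63rd from the highest difference of the genes above the filter.

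Tacr3 encodes the neurokinin 3 receptor, the preferred receptor of neurokinin B. It has 3 probe sets, of which 2 had higher values in KO and 1 a lower value. Probe set 1440803_x_at, the strongest in signal, had 7.41 in WT and 7.91 in KO, a difference of 0.50. Probe set 1437029_at had 5.78 and 6.67, a difference of 0.89, or 1.85-fold, and passed the filter in KO only. Probe set 1450278_at had 4.81 and 4.59, a difference of −0.22. The ending _x_at marks a probe set whose probes can match other transcripts, whereas 1437029_at carries no such mark. Of 2366 genes with exactly 3 probe sets, 4 had a range of at least 1.11, Tacr3 included, and the median range was 0.20. Tacr3 ranked 95th from the highest difference on the probe set of strongest signal.

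Promoter sequences are shown for Oxtr and Tacr3, as receptor genes with high values in KO, because the enzyme under study can act on HIF, whose binding element has the core ACGTG or GCGTG. The sequences come from RefSeq on build GRCm38.p6, which held a promoter for 9 of the 10 receptors and none for Trhr. The 250 bases before the annotated start were searched on both strands for the core, and capitals mark a match. The whole 250 bases are shown for Tacr3 at chr3:134828757-134829006 on the plus strand. For Oxtr, on the minus strand, a stretch of 30 bases is shown around each place with a match, at chr6:112489986-112490015 and chr6:112489851-112489880. The gene span of Oxtr in the annotation reaches upstream of the start used.
Tacr3: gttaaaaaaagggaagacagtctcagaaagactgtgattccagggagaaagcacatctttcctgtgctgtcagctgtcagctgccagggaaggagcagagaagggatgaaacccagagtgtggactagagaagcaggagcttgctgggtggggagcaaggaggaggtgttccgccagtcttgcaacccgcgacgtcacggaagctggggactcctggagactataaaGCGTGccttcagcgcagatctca
Oxtr, distal: ggaggggacacaCACGCcccactcgcgggt
Oxtr, proximal: cgggccccgcccCACGTGccacactttaaa

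The Tacr3 window held 1 match, GCGTG, starting 23 bases before the annotated start. The Oxtr window held 3, a GCGTG on the opposite strand whose match begins 178 bases before the start, and ACGTG on both strands of the palindrome CACGTG, at 43 and 42 bases before it. A match was present in 5 of the 9 receptor promoters, namely those of Oxtr, Tacr3, Cckbr, Vipr1 and Sstr2, and in 38.6% of all 32851 promoters of the same length. Cckbr, with 3 matches, differed by 0.14, Sstr2, with 2, by 0.02, and Vipr1, with 1, by −0.11. The receptors without a match were Tacr1 (−0.09), Npy1r (−0.06), Crhr1 (0.03) and Avpr1a (−0.10). Receptors with and without a match thus lay on both sides of 0, and a link of the core to the differences was not tested. The letters describe these windows alone.

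On the probe set of strongest signal, the remaining members with 2 probe sets were closer to 0. For Npy1r, the Y1 receptor of neuropeptide Y, the value was 8.22 in WT and 8.16 in KO on 1421471_at, a difference of −0.06, whereas 1426054_at had 4.24 and 4.74, a difference of 0.50 at a signal far below the filter. For Cckbr, the main brain receptor of cholecystokinin, 1454770_at had 8.06 and 8.20, a difference of 0.14, and 1460663_at had 5.53 and 5.40, a difference of −0.13. These 2 receptors thus join Trhr and Tacr3 as genes whose probe sets pointed in different directions.

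Crhr1 encodes the type 1 receptor of corticotropin-releasing hormone (CRH). It had 7.45 in WT and 7.48 in KO on 1418810_at and 5.96 and 6.01 on 1427782_a_at, with differences of 0.03 and 0.05. Vipr1, also called VPAC1, encodes a receptor of vasoactive intestinal peptide (VIP) and lies on chromosome 9, as P4htm does. It had 7.23 and 7.12 on 1455555_at and 4.16 and 4.05 on 1423004_at, with a difference of −0.11 on both. Avpr1a encodes the V1a vasopressin receptor and had 5.44 and 5.34 on 1418604_at and 4.57 and 4.53 on 1418603_at, with differences of −0.10 and −0.04, both below the filter. In these 3 genes the probe sets had the same sign and ranges of 0.02, 0 and 0.06, all under the median range of 0.12.

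Sstr2 and Tacr1 are represented by 1 probe set each, so agreement cannot be examined. Sstr2, a somatostatin receptor, had 7.31 in WT and 7.33 in KO on 1422256_at. Tacr1, the substance P receptor, had 6.40 and 6.31 on 1422282_at, just below the filter on its mean. The differences were 0.02 and −0.09.

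Of the 8 receptor genes with 2 or more probe sets, 4 had all differences on the same side of 0, namely Oxtr, Crhr1, Vipr1 and Avpr1a. Over all 4695 genes with exactly 2 probe sets this held for 49.8%, and over the 2366 genes with exactly 3 for 28.4%. A range above the median of genes with as many probe sets was found in 5 of the 8, which were Trhr, Oxtr, Tacr3, Npy1r and Cckbr. The pooled SD of the difference between probe sets of a gene was 0.458 in the 8 receptor genes and 0.147 over 9010 genes with 2 or more probe sets. These values describe the same pair of arrays from which the genes were picked, so the width of the ranges is no independent result. No receptor had more than 1 probe set above the filter. In 7 of the 8 genes the comparison was between a probe set above the filter and weaker ones below it, and in Avpr1a it was between 2 probe sets below it.

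Over all probe sets with 1 symbol, the spread of differences narrowed with signal. The size of the difference stayed below 0.39 in 95% of 8412 probe sets with a mean under 5 and below 0.38 in 95% of 6600 between 5 and the filter, and 11 receptor probe sets lie in these ranges. From the filter to 8 it stayed below 0.33 in 95% of 7079 probe sets, and at 8 and above below 0.22 in 95% of 12854. Beyond these limits for their own signal lay 1449571_at of Trhr, 1440888_at of Oxtr, 1440803_x_at and 1437029_at of Tacr3, and 1426054_at of Npy1r, all of them higher in KO. No receptor probe set lay beyond the limit on the lower side. The genes were chosen with the high values of Trhr, Oxtr and Tacr3 known, so their place beyond the limits is no independent result.

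The probe sets of stronger signal of Oxtr, Tacr3 and Vipr1 were designed on expressed sequence tags and the weaker of Vipr1 and the weakest of Tacr3 on RefSeq mRNAs. This order is no general feature of the array, since in 47.2% of 1560 genes with both kinds the tag-based probe set had the stronger signal. In Npy1r and Crhr1 the RefSeq mRNA probe set had the stronger signal. Their weaker probe sets, and that of Oxtr, were designed on other mRNA or cDNA records. The kind of record was looked at after the values were seen.

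**Figure D2:**
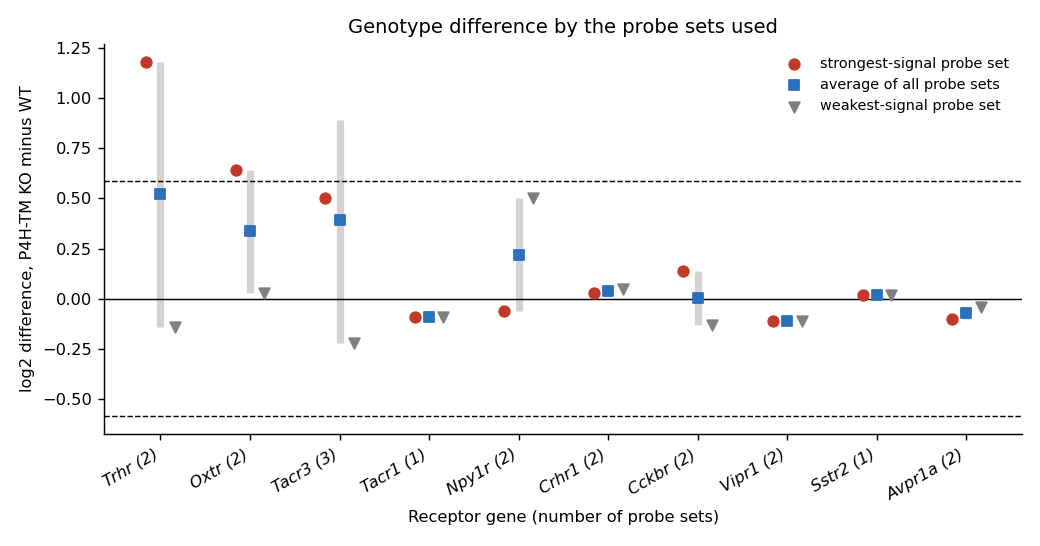
Log2 difference between the P4H-TM KO and WT arrays for each receptor gene on its probe set of strongest signal (red circle), as the average of its probe sets (blue square) and on its probe set of weakest signal (grey triangle), with the range of all probe sets as a grey bar and dashed lines at 1.5-fold. The average is 0.52 for Trhr, 0.335 for Oxtr and 0.39 for Tacr3, all under 1.5-fold. The weakest probe sets of Trhr, Tacr3, Cckbr, Vipr1 and Avpr1a lie below 0, as does the only probe set of Tacr1.

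Counted by gene, 2 of the 8 receptor genes at or above the filter were at least 1.5-fold higher in KO and 0 were at least 1.5-fold lower, while 0.631% of all 11730 genes were that much higher and 0.0512% lower. Counted by probe set, 2 of 8 above the filter were at least 1.5-fold higher and 0 lower, beside 0.492% and 0.0502% of 19933. Without the filter 3 of 19 receptor probe sets were higher and 0 lower, beside 0.495% and 0.14% of 34945. The genes were selected on this same contrast, so nothing is read from these shares. At any size, 10 of the 19 probe sets had higher and 9 had lower values in KO, with a median difference of 0.02. The median over the 10 genes was 0.025, beside 0 over all 18193 genes.

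As averages over their probe sets, Trhr and Oxtr fell short of the threshold, and Tacr3 stayed under it. Trhr came to 0.52, Tacr3 to 0.39 and Oxtr to 0.335, which is 1.43-fold, 1.31-fold and 1.26-fold, and no receptor gene then reached 1.5-fold. Of 41 genes with 2 or more probe sets whose strongest was above the filter and at least 1.5-fold higher in KO, the weakest probe set was also at least 1.5-fold higher in 11, higher at any size in 27 and lower in 14, and it was below the filter in 31.

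**Figure D3:**
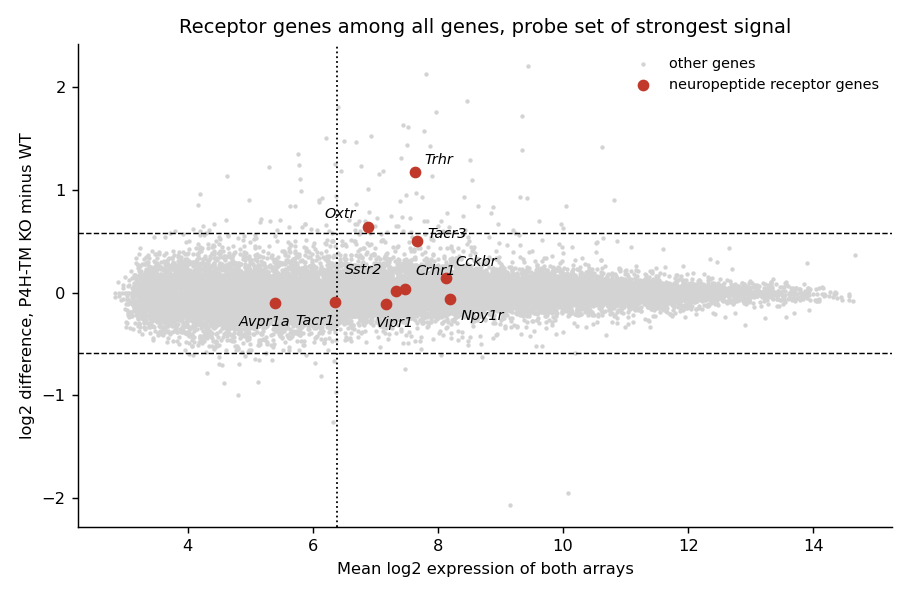
Log2 difference between the P4H-TM KO and WT arrays against the mean log2 expression of both arrays for all 18193 genes on the probe set of strongest signal (grey) with the 10 receptor genes in red, dashed lines at 1.5-fold and a dotted line at the signal filter. Trhr and Oxtr lie above the upper dashed line, Tacr3 just under it, and the other 7 receptors within the band of all genes.

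The receptors that share a ligand with Trhr, Oxtr and Tacr3 had differences other than theirs. Trhr2, the other TRH receptor of the mouse, had 6.11 in WT and 5.87 in KO, a difference of −0.24 below the filter. Among receptors of the oxytocin and vasopressin family, Avpr1a had −0.10, Avpr1b −0.36 and Avpr2 0.17, all below the filter. Among tachykinin receptors, Tacr1 had −0.09 and Tacr2 −0.18, again below the filter. Each of these families held 1 gene above the filter, and in each it was the gene with the highest difference. Trhr, Oxtr and Tacr3 were chosen with their high values known, and their relatives lay below the filter. Nothing is therefore read from this order.

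In the neuropeptide Y family all 5 receptor genes had lower values in KO on the probe set of strongest signal, from −0.06 for Npy1r to −0.31 for Npy5r. Of these, Npy4r (−0.07) and Npy6r (−0.24) were below the filter. Among all 18193 genes, 8913 were lower in KO. Npy5r encodes the Y5 receptor, linked to feeding, and had 9.15 in WT and 8.84 in KO, with −0.28 on its other probe set. Npy2r, the Y2 receptor found on axon terminals, had 10.08 and 9.92, a difference of −0.16. None of the 5 reached 1.5-fold, and the second probe sets of Npy1r (0.50) and Npy6r (0.17) had the opposite sign.

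The families of the other members lay mostly near 0 on the probe set of strongest signal. Crhr2 differed by 0.04, Cckar by −0.02 and Vipr2 by 0.00, each at a signal below the filter. The other probe set of Crhr2 had −0.26. Adcyap1r1, the receptor of pituitary adenylate cyclase-activating polypeptide (PACAP), differed by 0.14 with −0.07 on another of its 3 probe sets. Of the somatostatin receptors, Sstr4 had 10.91 on both arrays, Sstr3 differed by −0.04 and Sstr5 by −0.19. The other probe set of Sstr4 had −0.19 and that of Sstr3 had 0.15. Sstr1 differed by 0.43 at values of 4.01 and 4.44, far below the filter.

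By G protein, the 6 members coupled to Gq had differences from −0.10 to 1.18, with a median of 0.32. The 2 coupled to Gs had −0.11 and 0.03, and the 2 coupled to Gi had −0.06 and 0.02, with a median of −0.02. With the probe sets of each gene averaged, the median was 0.17 for Gq and 0.12 for Gi. The 3 genes with the highest differences were all Gq-coupled receptors, and so were Tacr1 and Avpr1a, which had lower values in KO. Trhr, Oxtr and Tacr3 were chosen with their high values known, so nothing is read from the Gq median or this order. A list of 48 other measured neuropeptide receptors, written from general knowledge, had 16 genes higher, 29 lower, a median of −0.04 and no gene at 1.5-fold, and 11 of them were above the filter. Adcyap1r1 (0.14) and Oprl1 (0.04), the nociceptin receptor gene, were the highest of these 11, and Npy5r and Npy2r the lowest.

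Of the 14 genes for ligands of the 10 receptors, 9 were higher and 5 lower in KO, the median was 0.08 and no gene reached 1.5-fold. Trh, the ligand gene of Trhr, had 5.60 in WT and 5.86 in KO, a difference of 0.26 below the filter. Oxt differed by −0.12, at 8.38 and 8.26, and Avp by −0.07. Tac2, which encodes neurokinin B, differed by 0.09, and Tac1, which encodes substance P, by 0.16 on one probe set and −0.07 on the other. The ligand genes of the 3 leading receptors thus lay within 0.26 of 0.

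Adcyap1, which encodes PACAP, had the highest difference of the ligand genes, 0.51, at 6.87 in WT and 7.38 in KO. Its second probe set differed by 0.46, so both readings of this gene lay close together. Ucn, the urocortin gene, had the lowest, −0.50, at 5.63 and 5.13, below the filter. The ligand genes Sst, Cort, Vip, Npy and Cck differed by 0.11, 0.12, 0.07, −0.04 and −0.02, Crh by 0.09 and Pyy by 0.07. Among 16 measured genes of other neuropeptides, Cartpt, which encodes the CART peptide, was 1.58-fold higher in KO on its 1 probe set, at 6.56 and 7.22, and Penk, the enkephalin precursor gene, had the lowest difference above the filter, −0.40, at 9.53 and 9.13.

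**Figure D4:**
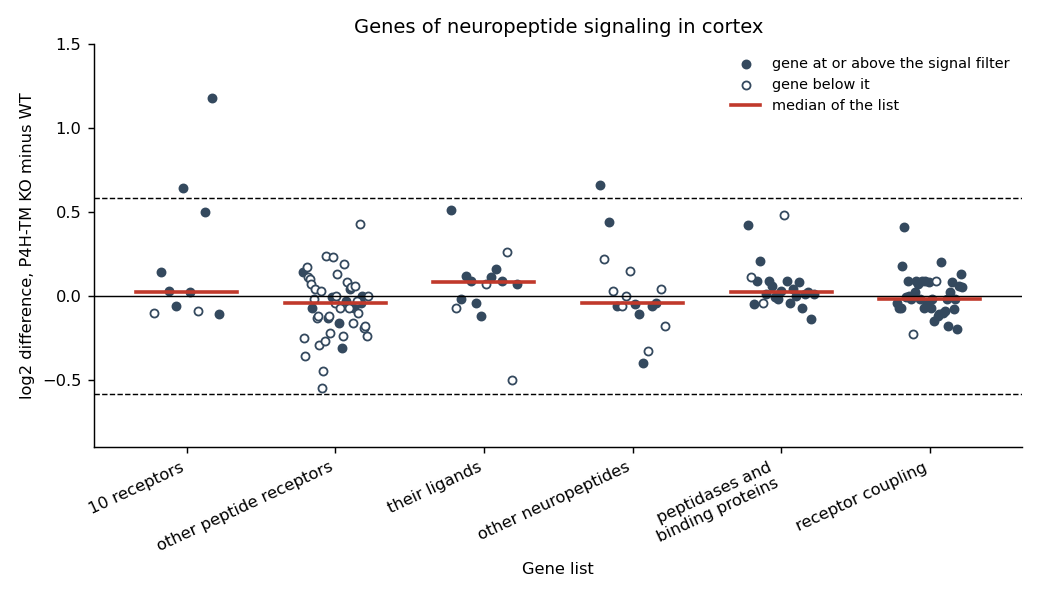
Log2 difference between the P4H-TM KO and WT arrays, with 1 point per gene on its probe set of strongest signal, for the 10 receptors, other neuropeptide receptors, the ligands of the 10 receptors, other neuropeptides, peptidases and binding proteins, and receptor coupling genes. Filled points are at or above the signal filter, the red bar is the median of a list and dashed lines mark 1.5-fold. All medians lie between −0.045 and 0.08, and the points beyond 1.5-fold are Trhr, Oxtr and Cartpt.

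Genes that process, bind or degrade neuropeptides mostly differed little. Of 23 measured genes, 15 were higher in KO and 7 lower, the median was 0.02 and no gene reached 1.5-fold. Trhde, which encodes the enzyme that degrades TRH outside cells, had 8.94 in WT and 8.80 in KO, a difference of −0.14 and the lowest of this list. Ramp3, an accessory protein of peptide receptors, followed with −0.07. Crhbp, the CRH binding protein gene, differed by 0.09. The highest above the filter were Ace, the angiotensin-converting enzyme gene, at 0.42, and Ctsh, which encodes cathepsin H, at 0.21, and another probe set of each had −0.07. Pcsk1 had the highest of the whole list, 0.48, at 5.96 in WT and 6.44 in KO, with a mean below the filter.

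Downstream of the receptors, 16 of 38 measured coupling genes were higher in KO and 21 lower, the median was −0.02 and no gene reached 1.5-fold. In the Gq route, 10 of 13 genes had lower and 3 higher values in KO, with a median of −0.07. With the probe sets of each gene averaged this median was −0.027. Over all 18193 genes, 8913 were lower and 8362 higher in KO. The Gq route includes Plcb4, a phospholipase C gene, with −0.18 and up to 0.30 over its 5 probe sets. The Gs route had a median of 0.005 and the Gi route one of 0.045. Adcy8, a calcium-stimulated adenylyl cyclase, had the highest difference of the coupling genes, 0.41, at 7.37 in WT and 7.78 in KO, followed by Kcnj9, a G protein-gated potassium channel subunit, at 0.20 with 0 to 0.36 over 4 probe sets. Rgs14, a regulator of G protein signaling, had the lowest difference above the filter, −0.20, and Gna14, a Gq family subunit, the lowest of all, −0.23, at a signal below the filter.

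Markers of other cell types and regions were set beside these values. Choroid plexus markers had a median difference of 1.62, with 11 of 12 measured genes at least 1.5-fold higher in KO. Their summed linear signal was 1.46 times that of WT, but Ttr, the transthyretin gene and the only member under 1.5-fold (0.37), made up 91.7% of the WT sum, and without it the ratio was 3.25. Meninges markers had a median of 0.32, with 3 of 10 at least 1.5-fold higher, and a summed signal 1.59 times that of WT, or 1.44 times without Dcn, the gene of strongest signal. The 3 were Dcn, Igf2 and Ogn, whose other probe sets had 0.10, 0.06 and 0.60. Leaving out the strongest gene of each list was chosen after the values were seen. A list of 11 genes enriched in the amygdala, the piriform cortex or the claustrum had a median of 0.09, with 6 higher, 4 lower and none at 1.5-fold, and a summed signal 1.10 times that of WT. Its highest members were Nr2f2 at 0.51, with a range from −0.06 to 0.65 over 6 probe sets, Rspo2 at 0.31 and Nr4a2 at 0.26, and its lowest was Prkcd at −0.27. Cortical interneuron markers had a median of −0.01, with 6 of 12 higher. Hypothalamus markers had a median of −0.055 and 2 of 10 above the filter, and striatum markers had a median of −0.10. The part of any of these tissues in the Trhr, Oxtr or Tacr3 values was not tested.

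**Figure D5:**
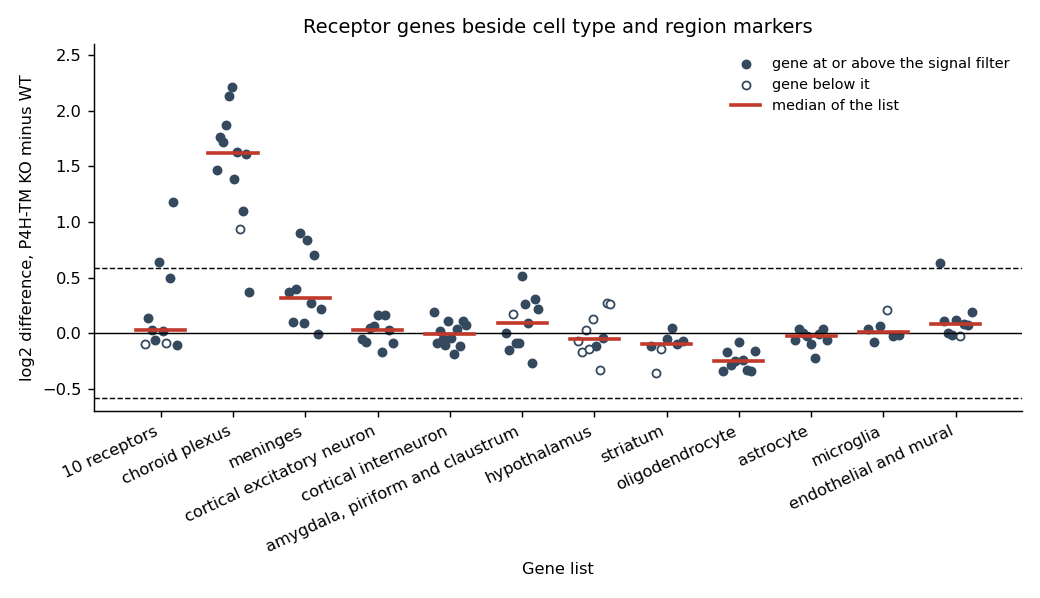
Log2 difference between the P4H-TM KO and WT arrays with 1 point per gene for the 10 receptors and for lists of cell type and region markers, where filled points are at or above the signal filter, the red bar is the median of a list and dashed lines mark 1.5-fold. Choroid plexus markers lie highest, with a median of 1.62, followed by meninges markers at 0.32, while the markers of cortical neurons lie around 0.

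The genes with differences closest to those of Trhr and Oxtr were named by distance over the 2 arrays, which is a weak measure of likeness. For Trhr (1.18) these were Wfdc2 (1.19), Cldn1 (1.19, with −0.13 as the lowest of its 4 probe sets) and Col8a2 (1.16). Cldn1 encodes a claudin of tight junctions and Col8a2 a collagen chain. For Oxtr (0.64) they were Slc4a2, an anion exchanger gene (0.64), Cobl (0.65, with −0.05 on its other probe set) and Fbln5, which encodes a fibulin of elastic fibers (0.65, with 0.16 on its other probe set).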

How the data were processed

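Per the labels and the methods, the authors hybridized pooled cortical RNA of 4 mice per genotype to 2 arrays of the Affymetrix mouse genome type, read intensities in the GeneChip Operating System and used GenePattern to normalize. The submitters' processing notes name RMA, without a version. This method subtracts background, brings the arrays to one distribution and summarizes the probes, which can compress differences of weak probe sets. The deposited values are log2 expression values with 2 decimals, from 2.69 to 14.91, and the number of arrays limits the precision.

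Of 45101 probe sets, 34945 that are not controls carry 1 symbol in the platform annotation and represent 18193 genes. Each gene is represented by its probe set of strongest signal on the average of WT and KO. The signal filter was 6.385, the median over all probe sets of the mean of both arrays, and the threshold 1.5-fold (0.585 on the log2 scale). Named genes were the 10 receptors, their ligands, P4htm, the 2 highest and 2 lowest genes above the filter of each list, and the 3 genes closest to Trhr and to Oxtr. Marker genes, the relatives of the receptors and some other list genes were named in addition, after their values were seen. Receptors and lists were chosen with earlier results of these data known. Functions were tested on simulated data. Computations ran in Python 3.11.15 with pandas 2.3.3 and numpy 2.4.6, the trend with statsmodels 0.14.6 and the plots with matplotlib 3.10.9. Alternatives were other ways to combine probe sets, other filters and thresholds, centred arrays and removal of the intensity trend by loess at a span of 0.3.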

Additional observations from a re-analysis of the deposited data

How the results depend on the processing

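With 1 array per genotype nothing here has a replicate check, and values were treated as unmoved within 0.101, the pooled SD between probe sets above the filter, and counts within 1.5 times. The Trhr difference of 1.18 was 0.52 as the mean or median of its probe sets and −0.14 on the weakest. Oxtr (0.64) was 0.335 as the mean or median and 0.03 on the weakest. Tacr3 (0.50) was 0.39 as the mean, −0.22 on the weakest and 0.89 without _s_at and _x_at probe sets. Npy1r (−0.06) was 0.22 as the mean or median and 0.50 on the weakest, and Cckbr (0.14) was 0.005 and −0.13. Of 68 alternatives for the 10 receptors, 53 stayed unmoved, among them every one with centred arrays or with the intensity trend removed. Many of these could not move by construction, so the count is no measure of stability. No receptor has more than 1 probe set above the filter, and Sstr2 and Tacr1 have 1 probe set each. Only Tacr3 has a probe set ending in _s_at or _x_at. The 2 receptor genes at least 1.5-fold higher numbered 0 with a filter at the 70th percentile or with probe sets averaged and 1 at 2-fold, and the 2 probe sets numbered 0 and 1. The 74 higher genes numbered 25 with that filter, 235 at a lower threshold of 0.322 on the log2 scale and 26 at 2-fold. The 6 lower genes numbered 27 without a filter, 90 at that lower threshold, 2 at 2-fold, 3 with probe sets averaged and 10 with a filter on the higher of both arrays, which was chosen after the data were seen. The medians of the 5 gene lists stayed unmoved in all 15 alternatives. Each of these medians lay closer to 0 than the tolerance of 0.101, so this count is no measure of stability either. The receptor list median of 0.025 was 0.085 over the genes at or above the filter. Agreement among probe sets above the filter gave no value, since no receptor has more than 1. The cause of these shifts was not tested.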
